A study of Homo sapiens with 12 samples.

Results

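Intergenic peaks near genes were examined in a Notch3 chromatin immunoprecipitation and sequencing (ChIP-seq) experiment. A peak was counted as intergenic near a gene when its summit lay outside the span of every protein-coding gene and more than 1 kb, but at most 100 kb, from the nearest end of one. Positions were on build hg38, chromosomes 1 to 22 and X. The 3 libraries with the Notch3 intracellular domain (N3ICD) held 1845 such peaks of 8113 peaks in all, and the whole series held 12583 peaks. The position rule uses no peak height, width or recurrence.

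All cells were neural crest cells differentiated from the human embryonic stem cell line H9. They were transduced with a lentivirus for GFP alone or for N3ICD with GFP and analysed 6 days later. The labels call the GFP cells neural crest and the N3ICD cells mural, the class of pericytes and vascular smooth muscle cells. Each group had 3 ChIP libraries, A, B and C, made with a Notch3 antibody from 3 independent differentiations of 1 line. The control cells thus differ from the N3ICD cells by the delivered domain and, per the labels, by cell class. Differences due to the domain and to cell class cannot be told apart here. The sources used here do not give the promoter of the lentiviruses. The 6 input libraries were not analysed here. Where 3 values stand for a group, they follow the order of the libraries A, B and C. A peak list measures neither expression nor histone marks, so the cell class and the activity of a peak as an enhancer were not measured.

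Notch3 is a receptor of pericytes and vascular smooth muscle. Once its intracellular domain is released, the domain enters the nucleus and joins Mastermind coactivators and RBPJ, which binds DNA, at target genes. Many RBPJ sites lie in enhancers, regulatory sequences that can stand far from the gene they act on. The nearest gene is therefore only a label of position and need not be the gene on which a peak acts.

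Because the rule used protein-coding genes only, some intergenic peaks lay at the promoters of long noncoding RNAs (lncRNAs). Of the 1845 N3ICD intergenic peaks, 27 overlapped a RefSeq lncRNA promoter window, 250 bases before to 50 bases after the start, and 13 had their summit in it. By library the overlaps numbered 4, 5 and 18 and the summits 3, 2 and 8, so most were in N3ICD C. Of the 954 GFP intergenic peaks, 0 overlapped such a window. Of the 29 windows overlapped, 8 (27.6%) held TGGGAA, the core of the RBPJ motif, on either strand, against 26.3% of all 12829 lncRNA windows of the same length. The share of windows with the motif was close to that of all windows. A match is a description of letters and not a bound site. Sequences of peaks away from these windows were not used here. The windows of MALAT1 (under the peak of highest fold at such a window), LINC01003 (which overlaps the N3ICD B peak of a region found in all 3 N3ICD libraries) and THBS2-AS1 (with a motif, in capitals) are given from RefSeq, build GRCh38.p14, plus strand, at chr11:65497488-65497787, chr7:152463874-152464173 and chr6:169212962-169213261.
MALAT1: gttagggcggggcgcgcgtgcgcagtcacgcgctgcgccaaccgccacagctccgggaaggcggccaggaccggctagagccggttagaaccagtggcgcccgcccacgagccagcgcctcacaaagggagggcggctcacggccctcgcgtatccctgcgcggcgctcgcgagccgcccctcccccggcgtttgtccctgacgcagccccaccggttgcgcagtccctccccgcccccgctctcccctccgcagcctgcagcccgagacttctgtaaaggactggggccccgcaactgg
LINC01003: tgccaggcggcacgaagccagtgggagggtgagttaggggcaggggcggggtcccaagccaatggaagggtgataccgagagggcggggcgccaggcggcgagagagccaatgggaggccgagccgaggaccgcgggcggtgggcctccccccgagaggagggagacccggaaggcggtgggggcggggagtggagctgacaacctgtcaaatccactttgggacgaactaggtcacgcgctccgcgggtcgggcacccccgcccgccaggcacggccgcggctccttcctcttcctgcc
THBS2-AS1: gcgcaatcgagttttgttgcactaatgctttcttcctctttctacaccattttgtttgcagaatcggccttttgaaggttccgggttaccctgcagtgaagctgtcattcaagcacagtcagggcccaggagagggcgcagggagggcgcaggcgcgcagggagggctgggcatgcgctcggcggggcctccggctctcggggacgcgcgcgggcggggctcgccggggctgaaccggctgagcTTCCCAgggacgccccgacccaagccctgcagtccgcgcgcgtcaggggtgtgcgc

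The peak over the MALAT1 window, an abundant nuclear lncRNA, was in N3ICD C, with a summit pileup of 13 stacked fragments. Its fold was 6.69 and its −log10 q 5.07. The fold is the authors' own ratio of ChIP pileup to background at the summit, and the −log10 q is the peak caller's significance after correction, so 1.3 stands for a q of about 0.05. The LINC01003 peak was in N3ICD B (pileup 11, fold 3.01, −log10 q 0.498), and the THBS2-AS1 peak was in N3ICD A (pileup 8, fold 3.97, −log10 q 0.517). Only the MALAT1 peak of these 3 passed 1.3. By the wider measure of a summit within 1 kb of either end of a lncRNA gene, 5.01%, 5.3% and 9.75% of intergenic peaks qualified with N3ICD, against 1.79%, 0.909% and 1.16% with GFP. Summits inside or within 1 kb of any annotated noncoding gene made up 25%, 29.1% and 34.3% with N3ICD. With GFP the shares were 17.6%, 22.1% and 24.1%. Outside every annotated gene, protein-coding or not, lay 404, 388 and 499 of the N3ICD intergenic peaks.

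The first comparison asked whether intergenic peaks were more numerous with N3ICD. The N3ICD libraries had 539, 547 and 759 intergenic peaks, and the GFP libraries had 279, 330 and 345. Every N3ICD library stood above every GFP library. The means were 615 ± 125 and 318 ± 34.6 (SD, n = 3 each), a ratio of 1.93, with a two-sided exact permutation p of 0.1, the smallest that 3 libraries against 3 can give (adjusted p = 0.225 over the 9 planned measures). As a share of all peaks, the groups overlapped. Intergenic peaks made up 24.3%, 22% and 22.4% of the peaks with N3ICD and 23.1%, 21.5% and 20.2% with GFP, with 95% Wilson intervals from 18.4% to 26.1% over the 6 libraries. The mean share was 22.9% ± 1.22 with N3ICD and 21.6% ± 1.46 in GFP cells (n = 3 each, ± SD; exact permutation p = 0.4). Each library's share stood below the 25.9% of the chromosomes that meets the rule, although the interval of N3ICD A reached past it. Among peaks with a −log10 q of 1.3 or above, the mean share was 21% with N3ICD and 13.8% with GFP. The difference was 7.22 percentage points (exact permutation p = 0.1), but the GFP shares rest on only 4, 2 and 23 intergenic peaks. When each library gave only its 1219 most significant peaks, the mean number was 260 with N3ICD and 268 with GFP (exact permutation p = 0.8), so the difference in number did not remain at equal numbers of peaks. The sources used here give no read totals. The background pileup that the deposited values imply over the genome scales with depth. It was 1.27, 1.58 and 0.926 with N3ICD and 1.46, 1.2 and 1.9 with GFP, and its part in the counts was not tested.

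**Figure D1:**
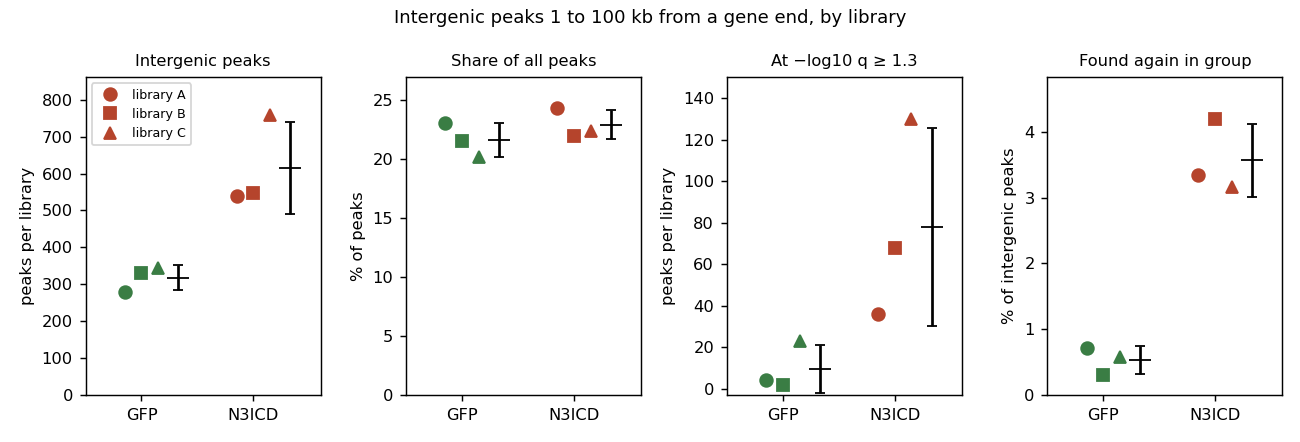
Each point is 1 ChIP library, with group mean and SD in black; panels give the number of intergenic peaks, their percent of all peaks, the number with a −log10 q of 1.3 or above and the percent overlapping a peak of another library of the group. The groups separate in number, significance and recurrence (3.16% to 4.2% against 0.303% to 0.717%) but overlap in share.

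Strong intergenic peaks were mostly found with N3ICD. Those at a −log10 q of 1.3 or above numbered 36, 68 and 130 with N3ICD and 4, 2 and 23 with GFP. The mean number was 78 ± 47.8 with N3ICD and 9.67 ± 11.6 in GFP cells (n = 3 each, ± SD; exact permutation p = 0.1, adjusted 0.225). The groups did not overlap, although the spread within the N3ICD group was wide, and without N3ICD C the difference of 68.3 peaks was 42.3. As a share of intergenic peaks these were 6.68%, 12.4% and 17.1% against 1.43%, 0.606% and 6.67%, so that the lowest N3ICD and the highest GFP library nearly met. Those at 5 or above numbered 1, 1 and 12 with N3ICD and 0 in each GFP library. N3ICD C, the library with the lowest background, thus held 12 of these 14.

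The groups overlapped in the size of the typical intergenic peak. Median width was 272, 269 and 286 bp with N3ICD and 292, 277 and 278 bp with GFP (exact permutation p = 0.5). Median summit pileup was 8, 9 and 7 stacked fragments against 9, 8 and 10 (exact permutation p = 0.5), and divided by the background of each library it was 6.31, 5.68 and 7.56 against 6.15, 6.64 and 5.27. The ranges overlapped for each measure. Median fold was 3.53, 3.48 and 3.64 against 3.62, 3.63 and 3.45 (means 3.55 ± 0.0778 and 3.57 ± 0.1, SD, n = 3 each; exact permutation p = 1). Many weak peaks share 1 fold value, since pileups are small whole numbers: in N3ICD C 178 intergenic peaks (23.5%) had a fold of 3.64. Among the 1219 most significant peaks of each library, median fold was 4.14 with N3ICD and 3.64 with GFP, but that choice keeps all peaks of GFP A and only the stronger ones of the longer lists. The groups differed in the highest fold and in the largest width. The highest fold was 7.05, 6.97 and 17.1 with N3ICD against 5.14, 5.44 and 5.52 with GFP. The widest intergenic peak measured 703, 1038 and 1257 bp against 658, 661 and 584 bp. At least 500 bp wide were 10, 15 and 41 peaks with N3ICD against 4, 7 and 6 with GFP. As a share of intergenic peaks these were 1.86%, 2.74% and 5.4% against 1.43%, 2.12% and 1.74%, which overlapped (exact permutation p = 0.2). The N3ICD lists are longer, and the part of list length in these highest values was not tested.

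The next comparison asked how far from genes these peaks lay. Density, the number of peaks per Mb of sequence at that distance, was highest within 2 kb of a gene end in each N3ICD library and lowest there in each GFP library. At 1 to 2 kb from a gene end it was 0.767, 1.39 and 1.53 per Mb with N3ICD (21, 38 and 42 peaks). With GFP it was 0.146, 0.146 and 0.11 (only 4, 4 and 3 peaks), a ratio of means of 9.18. At 50 to 100 kb it was 0.689, 0.54 and 0.722 against 0.456, 0.484 and 0.605, a ratio of 1.26. The groups did not overlap in any of the 5 bins up to 50 kb (exact permutation p = 0.1 in each) and overlapped at 50 to 100 kb (exact permutation p = 0.2). The ratio of density within 1 to 10 kb to that within 10 to 100 kb was 0.926, 1.47 and 1.38 against 0.519, 0.607 and 0.575 (means 1.26 ± 0.292 and 0.567 ± 0.0445, SD, n = 3 each; exact permutation p = 0.1, adjusted 0.225). N3ICD A stood lowest of its group but above every GFP library. The median distance was 27332, 19101 and 20783 bp with N3ICD and 36010, 32044 and 36651 bp with GFP (exact permutation p = 0.1). Enzymatic digestion of chromatin was used for all libraries, and the part of open chromatin near genes in these densities was not tested. Among peaks whose nearest gene had a known strand, 55.5%, 50.7% and 53.7% lay upstream of it with N3ICD and 51.6%, 47.2% and 48.2% with GFP, which overlapped (exact permutation p = 0.2).

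**Figure D2:**
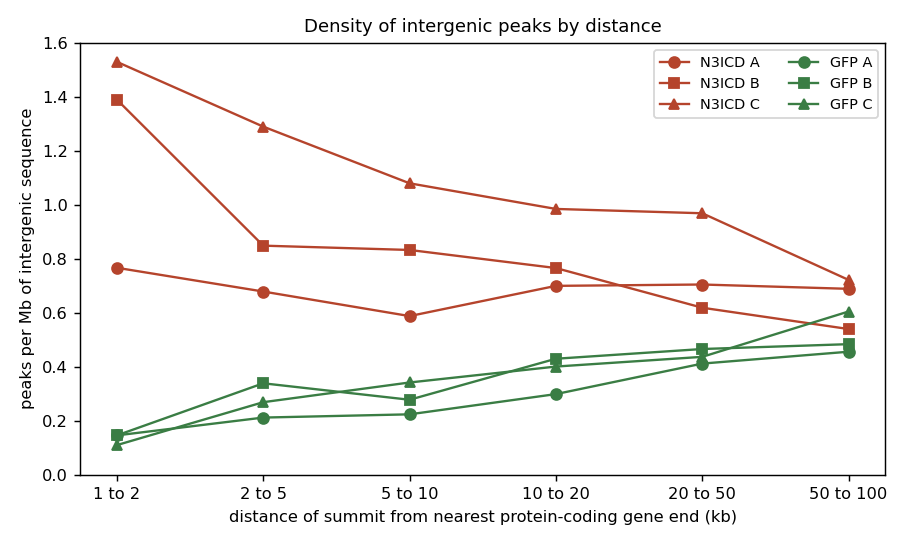
Lines give, for each of the 6 ChIP libraries, intergenic peaks per Mb of sequence (vertical axis) in 6 bins of distance from the nearest gene end in kb (horizontal axis). N3ICD libraries lie between 0.767 and 1.53 per Mb at 1 to 2 kb, where GFP libraries lie at 0.146 or lower, and the groups meet at 50 to 100 kb.

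Within N3ICD libraries, intergenic peaks resembled gene-body peaks and were weaker than peaks at gene ends. Recurrence, the percent of peaks that overlapped by at least 1 bp a peak of another N3ICD library, was 3.34%, 4.2% and 3.16% for intergenic peaks. For gene-end peaks it was 19.5%, 15.4% and 12.1%, for gene-body peaks 3.93%, 4.08% and 3.43%, and for peaks beyond 100 kb 0.84%, 1.37% and 0.812%. Intergenic peaks were thus below gene-end peaks and above far peaks in 3 of 3 libraries. Their median width was 14 to 21 bp below that of gene-end peaks, in 3 of 3 libraries, and 6 to 8 bp above that of gene-body peaks. The share past the q threshold of 1.3 was 12.1%, 21.4% and 33.5% for gene-end peaks, and 5.96%, 11.4% and 16.3% for gene-body peaks. Over 3 libraries a sign-flip test cannot go below an exact p of 0.25, so no test was made.

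**Figure D3:**
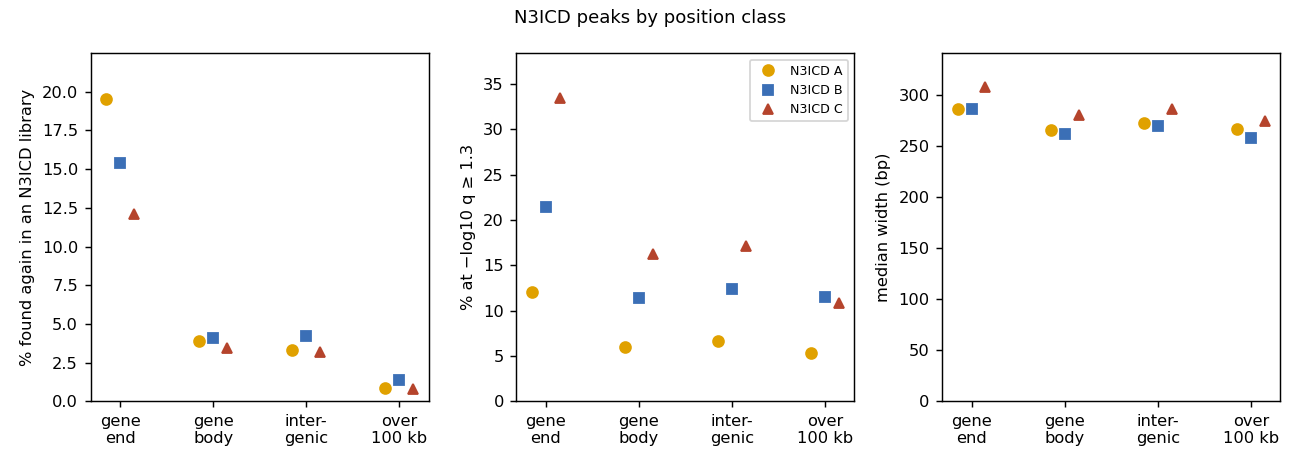
Each point is 1 N3ICD library; panels give the percent of peaks found again in another N3ICD library, the percent with a −log10 q of 1.3 or above and the median width in bp, by position of the summit. Intergenic peaks lie near gene-body peaks and below gene-end peaks in each panel.

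Recurrence was higher with N3ICD. With N3ICD, 18, 23 and 24 intergenic peaks were found again in their group, against 2, 1 and 2 with GFP. The mean share was 3.57% ± 0.558 with N3ICD and 0.533% ± 0.211 in GFP cells (n = 3 each, ± SD; exact permutation p = 0.1, adjusted 0.225), and every N3ICD library was above every GFP library. The difference of 3.04 percentage points was 1.98, 1.37 and 1.49 without N3ICD A, B and C, when fewer N3ICD libraries remain to overlap, and 1.88 when overlap had to be reciprocal over 50% of both peaks. The N3ICD lists are longer, and the part of list length in recurrence was not tested. With the 1219 most significant peaks from each library, which favours the stronger peaks of longer lists, the mean shares were 5.28% and 0.626%. Overlap with the other group was rare in both directions, at 0.557%, 1.46% and 0.395% for N3ICD and 0.717%, 0.909% and 3.19% for GFP intergenic peaks (exact permutation p = 0.5). Merged by overlap, the N3ICD intergenic peaks formed 1811 regions, of which 1780 had a peak in 1 N3ICD library only and 13 also had a GFP peak.

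A region was called N3ICD-only when at least 2 N3ICD libraries and no GFP library had a peak there. There were 30 such regions among the 1811, or 1.66%, against 1.63% of all 12268 regions of the series and 2.54% of the 7882 regions with any N3ICD peak. The share was near that of all regions, which include regions without any N3ICD peak, and below that of regions with one. The share thus shows no excess among intergenic regions. Among regions with a gene-end peak it was 7.51%, with a gene-body peak 1.77%, and with a peak beyond 100 kb 0.297%. No region with a GFP intergenic peak, of 951, was found in at least 2 GFP libraries alone, against 0.228% of all regions. Of the 30, 13 were found in B and C, 7 in A and C, 5 in A and B and 5 in all 3 libraries. Leaving out A, B or C left 17, 12 or 10, since a region then needs both remaining libraries. By distance, 10 lay within 2 kb of a gene end, 9 at 2 to 10 kb and 11 farther, and 2 of them, at IMPA2 and ELFN1, had 1 peak inside the 1 kb limit. The summits of a region agreed to a median of 126 bp, and to within 150 bp in 17 of the 30. In 6 of them 2 libraries passed a −log10 q of 1.3, and in 17 at least 1 library did. The 30 regions had 28 nearest genes, 0.14% of all protein-coding genes. The region near C2orf42 (chromosome 2, 70142177 to 70142503) was N3ICD-only by the overlap rule alone. A GFP B peak at 70141892 to 70142172 ended just before it.

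**Figure D4:**
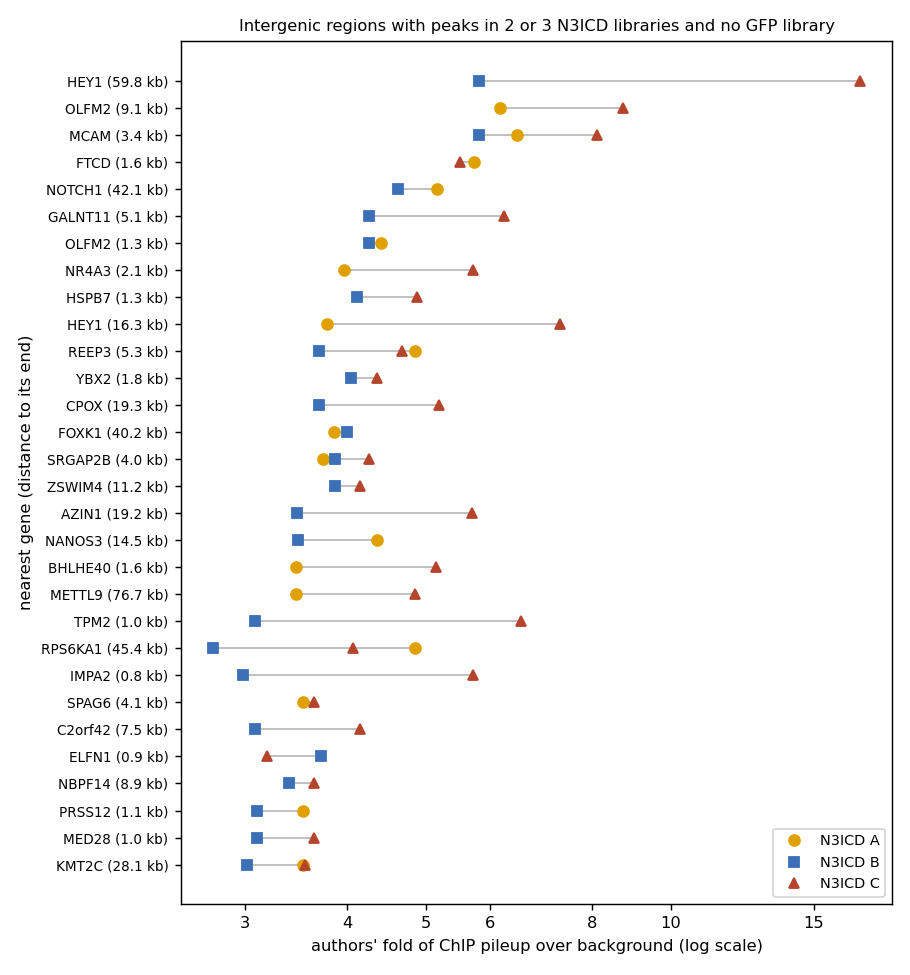
Points give the authors' fold (horizontal, log scale) of each N3ICD library's peak in the 30 N3ICD-only intergenic regions, named by nearest gene with distance in kb and ordered by mean percentile of fold; lines join the points of a region. The HEY1 region at 59.8 kb reaches 17.1 in C, and most others lie between 3 and 6.

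Of the 5 regions found in all 3 N3ICD libraries, the strongest was upstream of MCAM, the gene of CD146, an adhesion molecule of vessel wall cells. The region (chromosome 11, 119320454 to 119321725) had summit pileups of 14, 14 and 16, and folds of 6.48, 5.81 and 8.12. Its summits, 3412 to 3464 bp from the gene, fell within 52 bp of each other, and its −log10 q was 4.66, 3.78 and 8.28. All 3 libraries were thus well past 1.3. The peak in C, at 1257 bp, was the widest of all N3ICD intergenic peaks, and N3ICD B had a further peak 5938 bp upstream (fold 4.26). The other 4 were weaker. The region near REEP3, whose product shapes the endoplasmic reticulum, had folds of 4.85, 3.7 and 4.67, and widths of 265, 1038 and 953 bp. Near RPS6KA1, a kinase of the MAP kinase pathway, the region lay 45443 bp downstream or farther, with folds of 4.85, 2.74 and 4.07. The region near KMT2C, a histone methyltransferase gene, had folds of 3.53, 3.01 and 3.55 and summits spread over 630 bp, and its −log10 q was below 0.5 in each library. The region near SRGAP2B had folds of 3.74, 3.87 and 4.26. SRGAP2B is a near-identical partial copy of SRGAP2, so the assignment of its reads is uncertain.

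Genes of the HES, HEY, NRARP and NOTCH families were examined next. HEY1, a repressor of the Hairy family and a classic Notch target, had 2 regions, both beyond its high-coordinate end on chromosome 8 and each in 2 libraries. The far one (79827462 to 79827921) had pileups of 14 in B and 32 in C, folds of 5.81 and 17.1, and a −log10 q of 3.78 and 31.4, with summits 17 bp apart. Its peak in C was the highest by fold of all 1845, and N3ICD A had none there. The near one (79783749 to 79784226) had pileups of 9 in A and 17 in C and a −log10 q of 0.517 and 7.48. Gene-end peaks of HEY1 were also present in B and C, with pileups of 11 and 12. The NOTCH1 region, upstream of the receptor gene (chromosome 9, 136588004 to 136588621), had pileups of 11 in A and 14 in B, folds of 5.16 and 4.62, and summits 1 bp apart at 42062 and 42061 bp. HES1, another Hairy family repressor, had 2 upstream peaks in C alone, at 1154 and 2085 bp, with folds of 4.88 and 6.84. NRARP, a feedback inhibitor of the pathway, had 1 downstream peak in B (1801 bp, fold 4.26) and 1 in C (2563 bp, fold 4.15), which did not overlap. Of the 15 HES, HEY, NOTCH and NRARP genes, 4 were nearest to an N3ICD intergenic peak and 0 to a GFP one, where 7.83% and 4.14% of all protein-coding genes were. The other 11 had none, including NOTCH3, whose peaks lie inside the gene (2, 1 and 1 with N3ICD, and 0 in each GFP library). Only the N3ICD cells carry delivered DNA for the Notch3 domain, and its part in the NOTCH3 peaks was not tested.

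**Figure D5:**
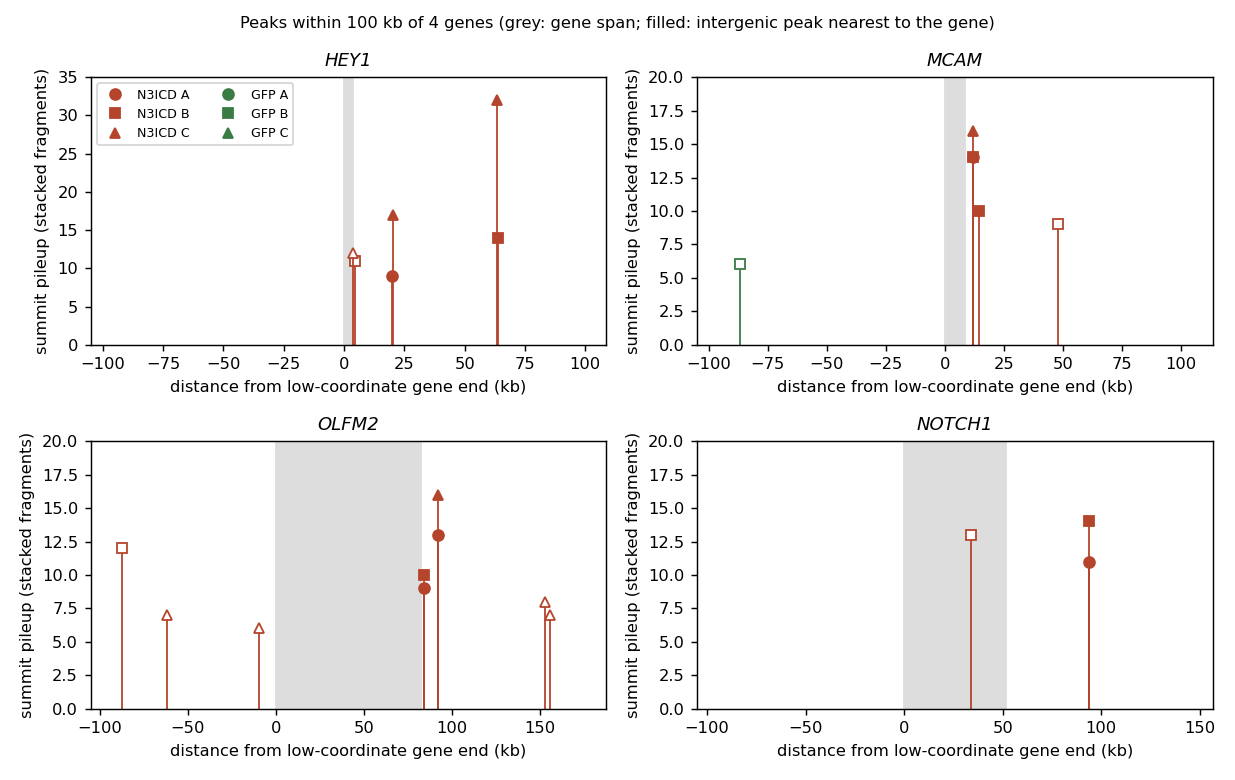
Stems give the summit pileup (vertical) of every peak within 100 kb of HEY1, MCAM, OLFM2 and NOTCH1 against distance in kb from the low-coordinate gene end (horizontal); grey marks the gene, filled symbols the intergenic peaks nearest to it and open symbols other peaks. Symbols of different N3ICD libraries coincide at each gene, and the single GFP peak shown, near MCAM, is inside another gene.

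The other leading regions lay at genes of varied function. OLFM2, a member of the olfactomedin family of glycoproteins, had 2 upstream regions on chromosome 19. The one at 9145 to 9159 bp (9945524 to 9945804) had pileups of 13 in A and 16 in C, folds of 6.17 and 8.75 and a −log10 q of 3.85 and 9.3. The one at 1285 to 1386 bp (9937734 to 9938140) had folds of 4.41 in A and 4.26 in B, with a −log10 q below 1.3 in both. Each of the 3 N3ICD libraries thus had a peak near OLFM2, whereas none of the GFP libraries had one within 100 kb. FTCD, a liver enzyme of histidine and folate metabolism, had a region 1603 to 1665 bp downstream (folds 5.73 in A and 5.51 in C; −log10 q 2.97 and 3.5). GALNT11, which starts O-linked glycosylation, had folds of 4.26 in B and 6.23 in C 5057 to 5090 bp downstream. NR4A3, an orphan nuclear receptor, had folds of 3.97 in A and 5.71 in C 2074 to 2282 bp upstream. HSPB7, a small heat shock protein of heart and muscle, had folds of 4.12 in B and 4.87 in C. The regions at YBX2, CPOX and FOXK1 ranked lower by mean percentile of fold, with folds between 3.7 and 5.19. In these pairs the higher fold was in C for GALNT11, NR4A3, HSPB7, YBX2 and CPOX, and C was not the higher for FTCD.

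Some of the highest peaks were found in 1 library only. In N3ICD A the highest fold, 7.05, was 95451 bp from ZMIZ1, a transcriptional coactivator, with a pileup of 15 and a −log10 q of 5.76. The second in A was 34799 bp downstream of SUCLG2, a mitochondrial enzyme subunit, with a fold of 6.61. In N3ICD B the highest was 73191 bp upstream of LYSMD4 (fold 6.97, pileup 17, −log10 q 6.26), and the second, near SPDYE21 (fold 6.17), belongs to a family of near-identical copies. None of these 4 was found again in another library. In N3ICD C, OAZ2, an inhibitor of polyamine synthesis, had a fold of 10, and KRT8, an epithelial keratin, a fold of 8.83, and neither was found again. The highest GFP intergenic peaks had folds of 5.14 in A (GLYATL1 and CACNA1E), 5.44 and 5.1 in B (TMEM161B and PARP11), and 5.52 and 5.18 in C (ZNF716 and ANO3). These stood below the highest 3 of each N3ICD library.

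Nearest genes were then grouped by function. Over all 19974 protein-coding genes, 7.83% were nearest to an intergenic peak of any N3ICD library and 4.14% to one of any GFP library. By library these were 2.52%, 2.58% and 3.53% with N3ICD and 1.33%, 1.59% and 1.59% with GFP. Of 30 Notch target genes, 11 (36.7%) were nearest to an N3ICD intergenic peak, in 4, 5 and 8 cases by library, and 0 to a GFP one. Apart from HES1, HEY1 and NRARP, these were BHLHE40, BHLHE41, CCND1, GATA3, ID3, JAG1, MYC and PDGFRB. Most of the peaks at these 8 had a −log10 q below 1.3. BHLHE40, a circadian and hypoxia repressor, had a region 1637 to 1757 bp downstream with folds of 3.46 in A and 5.15 in C, and a second peak 41226 bp downstream in C (fold 6.23). JAG1, a Notch ligand, had a peak 2160 bp upstream in B (fold 4.01, −log10 q 1.3) and one 65438 bp upstream in A (fold 3.09). CCND1, a cell cycle cyclin, had 1 peak in B (fold 3.6) and 1 in C (fold 3.95), which did not overlap. The single peaks at GATA3, ID3, MYC and BHLHE41 had folds of 3.53, 3.28, 3.27 and 2.82. Of 36 Notch pathway components only JAG1 and NOTCH1 had one with N3ICD, or 5.56%, which is below the background, and FBXW7 had one with GFP.

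Of 26 pericyte and mural markers, 7 (26.9%) were nearest to an N3ICD intergenic peak and 3 (11.5%) to a GFP one. The list thus stood above the share of all protein-coding genes in both groups, 7.83% with N3ICD and 4.14% with GFP. MCAM was the only marker with an N3ICD-only region. PDGFRB, the platelet-derived growth factor receptor that defines pericytes, had 2 peaks in C, 2380 and 4196 bp upstream, with folds of 4.15 and 5.19 and a −log10 q of 0.828 and 2.11. TBX2, a transcription factor of mural cells, had a peak at 1729 bp in B (fold 4.81, −log10 q 2.34). FOXC1 and FOXF2, forkhead factors of brain pericytes, had 1 upstream peak each in C (folds 4.67 and 4.15), and ABCC9, a subunit of the mural potassium channel, had 1 in A (fold 3.91). TBX18 had 1 in N3ICD A (fold 3.97) and 1 in GFP C (fold 3.3). The other markers with a GFP peak were COX4I2 (fold 3.63 in B) and EDNRA (fold 2.98 in C). Markers with none in either group included CSPG4, RGS5 and KCNJ8. The 7 markers with an N3ICD peak were thus reached in different libraries and, MCAM apart, at separate sites. Of 20 smooth muscle contractile genes, only TPM2, a tropomyosin, had a region, 1041 to 1265 bp upstream (folds 3.08 in B and 6.55 in C).

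Among the other lists, 7 of 35 extracellular matrix genes (20%) were nearest to an N3ICD intergenic peak and 1 to a GFP peak. These were COL1A1, COL1A2, COL4A1, COL6A3, COL8A1, LAMA2 and NID1, each in 1 library, with folds of 2.96 to 3.97. None reached a −log10 q of 1.3. The counts were 5 of 20 neural crest genes with N3ICD and 3 with GFP, 4 of 30 TGF-beta and BMP pathway genes against 3, and 2 of 15 endothelial genes against 2. For the pluripotency genes they were 1 of 14 (LIN28A, fold 3.64 in C) against 0, and for Schwann cell and neuron genes 1 of 20 against 2. Of 24 housekeeping genes, 4 (16.7%) were nearest to an N3ICD intergenic peak and 1 to a GFP one. Several lists unrelated to Notch therefore also stood above 7.83%. A gene beside a wide stretch of intergenic sequence is more often nearest to a peak, and the part of this in the counts was not tested.

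A peak at the end of the nearest gene seldom went with an intergenic one. With N3ICD, 12 of 504, 20 of 516 and 46 of 705 nearest genes also had a gene-end peak in the same library. These are 2.38%, 3.88% and 6.52%, above the 1.15%, 3.08% and 4.38% of all genes. With GFP they were 0 of 266, 1 of 318 and 1 of 317, or 0%, 0.314% and 0.315%, where 0.0601%, 0.0901% and 0.125% of all genes had a gene-end peak. Most nearest genes had 1 region: 1355 genes had 1, 178 had 2, 27 had 3, 1 had 4 and 3 had 5. Those with 5 were C2orf42, LOC124901643 and POTEH. GFP libraries had 6 intergenic regions nearest to POTEH and 1 nearest to C2orf42, and POTEH belongs to a family of near-identical copies.

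Peaks lay on both sides of the limits of the rule. Just beyond 1 kb, and so counted as intergenic, were peaks near MED28 (1006 bp, fold 3.64) and SOX12 (1013 bp, fold 7.27). Just within 1 kb, and so not counted, were peaks near GADD45G (993 bp, fold 4.62) and ZSCAN18 (971 bp, fold 3.39). At 100 kb the nearest counted peaks were at RIPK4 (99940 bp, fold 3.64) and RBMX2 (99529 bp, fold 3.47). The nearest not counted were at ASB1 (100076 bp, fold 4.67) and TLE1 (100412 bp, fold 3.53).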

How the data were processed

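Per the submitters' processing notes, the build was hg38 and the authors' tools included the aligner Bowtie2 2.2.1 and the peak caller MACS3 3.0.0a7. The notes also list deepTools 3.5.1, bedtools 2.30.0 and SAMtools 1.11. Neither options nor the control of a peak call are given in the sources used here. Formaldehyde fixation and enzymatic digestion of chromatin are stated per the labels' protocols. The deposited peaks were called per library, with a lowest −log10 p of 3.3. The deposited fold is the authors' ratio of pileup to background, the deposited −log10 p and −log10 q are their caller's, and the deposited signal is the summit pileup. Total depth is unknown.

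Background was computed as (pileup + 1) / fold − 1, taking its lowest repeated value in a library. Gene spans came from a RefSeq table of hg38, and strand was known for 15812 of 19974 protein-coding genes. Peaks overlapping by 1 bp were merged. Library values were compared with two-sided exact permutation tests and Benjamini-Hochberg adjustment over 9 measures. No genome was used here, so the planned motif search at peak summits was not made. Wilson intervals are at 95% and cover counting error only.

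The members, gene lists and tests were chosen with earlier results of these data known. Named regions are those in all 3 N3ICD libraries, the 15 N3ICD-only regions with the highest mean percentile of fold, the top 3 peaks of each N3ICD and top 2 of each GFP library, peaks at Notch targets, list genes with an N3ICD-only region, and HES, HEY, NRARP and NOTCH genes. Other list genes, IMPA2, ELFN1 and the lncRNAs were named after their values were seen. Median distance, upstream share, wide peaks, the distance bins, lncRNA counts and the joint gene-end count were added after seeing the data. Scripts ran on Python 3.11.15 (SciPy 1.17.1, pandas 2.3.3, numpy 2.4.6; figures with matplotlib 3.10.9) and were tested on simulated data.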

Additional observations from a re-analysis of the deposited data

How the results depend on the processing

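Of 112 values under alternatives, 95 kept their direction and side. With equal numbers of peaks the differences (N3ICD minus GFP) turned to −8.33 peaks, a share of −0.811 percentage points and a median fold of 0.509. Median fold also changed sign at 5 to 50 kb (0.00239), and the share did outside every annotated gene (−0.909). Pileup over background differed by 0.498. With single libraries left out the difference in median fold ran from −0.076 to 0.0143 (0.0089 without GFP A, 0.0129 without GFP B and 0.0143 without N3ICD B), in number from 225.0 to 335.0, in number at a −log10 q of 1.3 from 42.3 to 89.3, and in recurrence from 1.37 to 3.27. The count of 30 N3ICD-only regions became 6 when peaks had to pass a −log10 q of 1.3 and 0 at 5. It was 19 with equal numbers, 5 with all 3 libraries and 14 at 5 to 50 kb. Without N3ICD A, B or C it was 17, 12 or 10, fewer by construction, and it stayed at 30 without any single GFP library. Without N3ICD A there was 1 GFP-only region.

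With the letter as a replicate block, the difference in number stayed at 297 peaks (exact sign-flip p = 0.25) and recurrence at 3.04 percentage points. Over the 9 measures exact p-values were 0.25 to 1, and 0.25 is the smallest possible. Same-letter libraries correlated at −0.0178, 0.124 and −0.125 over 598 bins of 5 Mb, so the correlations do not show whether letters mark shared differentiations.

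Depth is unknown beyond the implied background, most peaks rest on pileups under 10, and p-values cannot pass 0.05 with 3 libraries against 3, which says nothing of stability. Near-identical copies make some assignments uncertain.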

Other observations

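By chromosome, intergenic peaks per Mb of qualifying sequence had their highest N3ICD mean on chromosome 19 (1.28, against 1.18 on chromosome 22), at 1.14, 1.08 and 1.62 in libraries A to C, against 0.108, 0.758 and 0.487 with GFP. On chromosome 17 they were 0.807, 0.934 and 0.976 against 0.0425, 0.127 and 0.0425. The ratio of means, 12.8, was the largest of any chromosome but rests on only 1, 3 and 1 GFP peaks. The groups overlapped on chromosome X, at 1.03, 0.497 and 0.776 against 0.795, 0.815 and 0.795, and on chromosome 4, where the means were 0.671 ± 0.0893 and 0.722 ± 0.185 (SD, n = 3 each). On these chromosomes alone the N3ICD mean was below the GFP mean. The groups also overlapped on chromosomes 6 and 18, and their ranges met on chromosomes 9 and 10. These values were looked at for 23 chromosomes after the data were seen and carry no test.

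Of the 13 N3ICD intergenic regions that also had a GFP peak, the one near CENPC, a centromere protein gene, was the only one with peaks in 2 N3ICD libraries. Its folds were 2.96 in N3ICD A and 2.73 in N3ICD B. It also had a peak in each of the 3 GFP libraries, with folds of 2.85 in GFP A and 3.04 in GFP B. A region near SLC41A2, a magnesium transporter gene, had a peak in N3ICD A (fold 2.22) and in 2 GFP libraries.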
